A study of Mus musculus with 7 samples.

Results

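Translation initiation factors were examined as the genes whose symbol begins with Eif and a number from 1 to 6. The kinases of eIF2 (Eif2ak genes), symbols marked -ps and the gamma subunit genes Eif2s3x and Eif2s3y were left out. Of 68 matching symbols 16 were left out in this way, and 52 genes remained of 55484 in the count table. Of these, 47 had enough counts to be tested, among 16580 genes tested in all. The 5 genes that were not tested had between 0 and 7 counts in any library. They were Eif4a3l1 and Eif4a3l2 (copies of Eif4a3), Eif4e1b (an oocyte relative of the cap-binding protein), Eif4ebp3 (a binding protein of eIF4E) and Eif2c5. Eif2c5 is annotated as a long non-coding RNA gene rather than as an initiation factor, and it entered by its symbol alone.

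In initiation, eIF2 carries the initiator tRNA to the small ribosomal subunit, where eIF1, eIF1A, eIF3 and eIF5 help to find the start codon. eIF4E binds the mRNA cap, eIF4G bridges cap and ribosome, and the helicase eIF4A, with eIF4B or eIF4H, opens the leader. The exchange factor eIF2B reloads eIF2 with GTP, and its block by phosphorylated eIF2 lowers protein synthesis under stress. Mouse embryonic stem cells are known for a low rate of protein synthesis that rises when they differentiate.

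The study counted transcripts in 4 libraries of mouse embryonic fibroblasts (MEFs, connective tissue cells grown from embryos) and 3 libraries of mouse embryonic stem cells (mESCs, pluripotent cells grown from the early embryo). Both were untreated and are given as C57/Bl6 background, with no line, passage, sex or culture named for single libraries. The figure legends of the paper call the expression samples biological replicates and count fewer MEF samples than there are MEF libraries here. Sample titles are numbered apart, but the count columns of a cell type all carry the same sample number. The labels name no separate cultures, so p-values measure only the spread between these libraries. The libraries were made from the 3′ ends of poly(A) RNA with molecular identifiers, so a count stands for a tagged molecule and was not divided by gene length. Libraries are named by their total counts, and values are listed in the order 11441278, 7312679, 9176467 and 6528643 for MEFs and 8193825, 8057985 and 7462710 for mESCs. Values are CPM, a gene's share of the library's counts, scaled by edgeR's TMM method, and 3 counts, taken as the floor, were worth 0.289 to 0.479 CPM. All 10 pluripotency markers listed were higher and all 10 fibroblast markers lower in mESCs. Of 7 tested blood cell markers 2 were higher and 2 lower, with a summed level of 36.8 to 59.7 CPM in MEFs and 92.3 to 100.5 CPM in mESCs. In mESCs the sum was mostly Laptm5 (52.8 to 62.7 CPM) and Kit (29.6 to 34.0 CPM). In MEFs Cd34 was the largest, at 25.9 to 33.4 CPM. Ptprc had 1 to 17 counts in MEFs and 0 to 1 in mESCs. The part of these markers in the results was not tested.

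The sequence in front of 3 genes is shown because the results turn on them: Eif2s2, which took the most counts of any gene in each mESC library, and the helicase pair Eif4a1 and Eif4a2, of which Eif4a2 had the largest fold change upward. Each is the 250 bases before the RefSeq start on GRCm38.p6, written 5′ to 3′ on the strand of the gene. Capitals mark matches, on either strand, to the E-box CACGTG, the GC box GGGCGGGG, the ETS motif CCGGAAG or the CCAAT box, or to an NRF1-like motif of 10 bases.
Eif2s2 (chr2:154892907-154893156, minus strand): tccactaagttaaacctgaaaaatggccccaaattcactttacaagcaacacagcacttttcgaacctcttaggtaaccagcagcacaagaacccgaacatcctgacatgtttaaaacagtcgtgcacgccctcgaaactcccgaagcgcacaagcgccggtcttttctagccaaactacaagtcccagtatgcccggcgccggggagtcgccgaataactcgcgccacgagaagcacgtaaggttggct
Eif4a1 (chr11:69672424-69672673, minus strand): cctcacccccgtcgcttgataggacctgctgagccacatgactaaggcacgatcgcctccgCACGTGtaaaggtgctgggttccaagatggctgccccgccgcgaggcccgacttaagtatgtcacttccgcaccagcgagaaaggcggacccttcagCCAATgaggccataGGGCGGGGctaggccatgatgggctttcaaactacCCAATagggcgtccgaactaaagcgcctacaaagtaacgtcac
Eif4a2 (chr16:23107218-23107467, plus strand): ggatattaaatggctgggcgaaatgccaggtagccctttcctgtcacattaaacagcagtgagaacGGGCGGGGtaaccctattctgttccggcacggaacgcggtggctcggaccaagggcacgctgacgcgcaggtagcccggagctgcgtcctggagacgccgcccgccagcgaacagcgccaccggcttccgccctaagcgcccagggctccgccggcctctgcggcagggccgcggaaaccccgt
The Eif4a1 stretch held 4 matches, namely 1 E-box, 2 CCAAT boxes and 1 GC box. The Eif4a2 stretch held 1 GC box, and the Eif2s2 stretch held none of the 5 motifs. The longer RefSeq window of Eif2s2, which runs past the start, did hold the NRF1-like motif.

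Over the initiation factors, 39 genes had a RefSeq window of 250 bases before to 50 after the start, 51 windows in all. Their median GC content was 62.7%, against 52.7% over 32851 windows of all genes. The E-box CACGTG was in 23.5% of their windows and in 7.15% of all. It was found at Eif1b, Eif3a, Eif3f, Eif3k, Eif4a1, Eif4e, Eif4g1, Eif4h, Eif5a and Eif5a2. The ETS motif was in 35.3% against 8.86%, the NRF1-like motif in 19.6% against 4.6% and the GC box in 33.3% against 17.6%. CCAAT was in 27.5% against 37.4% and TATAAA in 5.88% against 13.6%. The palindromic NRF1 motif, a stricter form of the NRF1-like motif, was in 1.96% against 0.971%. No window of the factors held the long YY1 motif, the shorter ATGGCGG within it, TGACGTCA, TGATGCAA or ATGCAAAT, which were in 0.633%, 4.05%, 1.79%, 0.895% and 1.74% of all windows. Set beside the comparison of counts that follows, the E-box was in 0 of the 9 genes with a window that were higher in mESCs, in 4 of 7 that were lower (Eif1b, Eif3f, Eif4g1 and Eif4h) and in 6 of 21 that were not called. The ETS motif was in 3, 3 and 9 of the same genes, and CCAAT in 3, 1 and 9. The GC box was in 3, 2 and 8, and the NRF1-like motif in 1, 0 and 6. TATAAA was in 0, 1 and 2, and the palindromic NRF1 motif in 0, 0 and 1. The same split was not made over the windows of all genes, so these counts have no background. These matches are a description of the windows, and their part in the counts was not tested.

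Between the cell types, 10 of the 47 tested factors were higher in mESCs and 11 were lower at an adjusted p under 0.05, by the quasi-likelihood test of edgeR and the Benjamini-Hochberg adjustment. That is 21.3% higher and 23.4% lower, where 22.8% and 25.0% of all tested genes were. The calls together made up 44.7% of the factors against a background of 47.9%, so the share called was near that of all genes. The sizes were smaller. The median absolute log2 fold change was 0.35 for the factors and 0.81 for all tested genes, and 10.6% of the factors against 42.7% of all genes lay beyond 1 on the log2 scale. In a test against a fold change of 2, 6.38% of the factors were called against a background of 24.1%, namely Eif2s2 and Eif4a2 as higher and Eif4e3 as lower. The CPM values of the cell types did not overlap for 26 factors, 55.3%, against a background of 52.1%. In RNA pooled from many cells, fewer cells of a type and less RNA per cell cannot be told apart. The paper describes sorting of both cell types for its chromatin libraries and does not say whether the RNA came from sorted cells.

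The balance of directions moved with the scaling. TMM scaling lowered the median log2 fold change of all tested genes from 0.32 to 0.04, and the factors had a median of -0.03 beside it. With library size alone 17 factors were higher and 7 lower, so 70.8% of the calls were higher in place of 47.6%. Of the 21 calls 17 were shared between both scalings, and Eif3c, Eif3f, Eif3h and Eif4g1 were called lower with TMM and not with library size alone. With library size alone Eif1ad, Eif2b1, Eif2s1, Eif3a, Eif3d, Eif3k and Eif4ebp2 were called higher, which were not called with TMM. When each library was left out in turn, 17 of the 21 calls were kept in all 7 fits, and the other 4 are given with their genes.

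**Figure D1:**
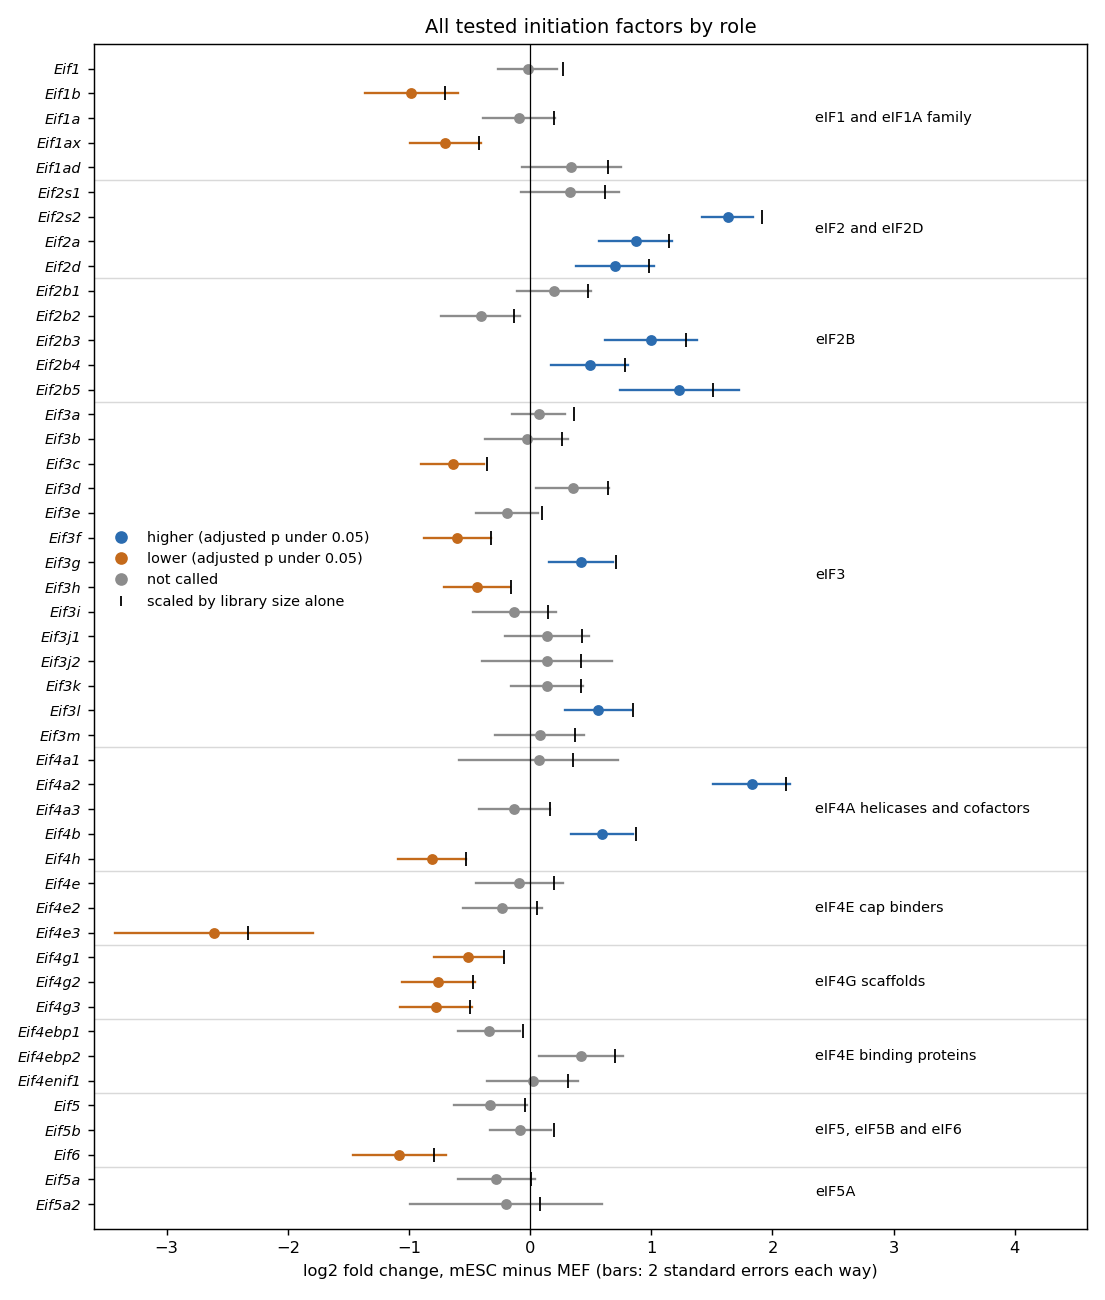
Fitted log2 fold change (mESC minus MEF, horizontal axis) of the 47 tested initiation factors, grouped by role, with bars of 2 standard errors each way, from 4 MEF and 3 mESC libraries. Black ticks give the value scaled by library size alone. The values ran from -2.61 for Eif4e3 to 1.83 for Eif4a2, and all 3 eIF4G genes lie left of 0.

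Among the carriers of the initiator tRNA, 3 of 4 tested genes were higher in mESCs and the alpha subunit gene Eif2s1, the target of the eIF2 kinases, was not called. Most roles hold few genes, and the background for each is 22.8% higher and 25.0% lower over all tested genes. Eif2s2 (chromosome 2, 154871410 to 154892935, GRCm38) encodes the beta subunit of eIF2. Its counts were 24489, 16067, 19200 and 16052 in MEFs and 62546, 75349 and 59764 in mESCs. In CPM these were 2424 ± 112 (SD, n = 4) and 7499 ± 964 (SD, n = 3), with every mESC library above every MEF library. The difference was 3.09-fold, or 1.63 ± 0.105 on the log2 scale (SE; adjusted p = 6.63e-07, edgeR). Eif2s2 ranked first of all genes in each mESC library, with 0.763%, 0.935% and 0.801% of the counts. In the MEF libraries it held 0.214%, 0.22%, 0.209% and 0.246% and ranked between 26 and 36. It therefore had the most counts of the initiation factors in each of the 7 libraries. The authors counted reads that mapped uniquely, so genes that share sequence with others can lose counts. The rank is thus a rank of such counts, and whether it holds for mRNA levels was not tested. Of the 50-base transcript sequences of Eif2s2, 10.3% also occur in other genes, 78 genes in all. The share was 13.9% for those in its 3′ tails and 21.9% for those in its protein-coding transcripts.

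**Figure D2:**
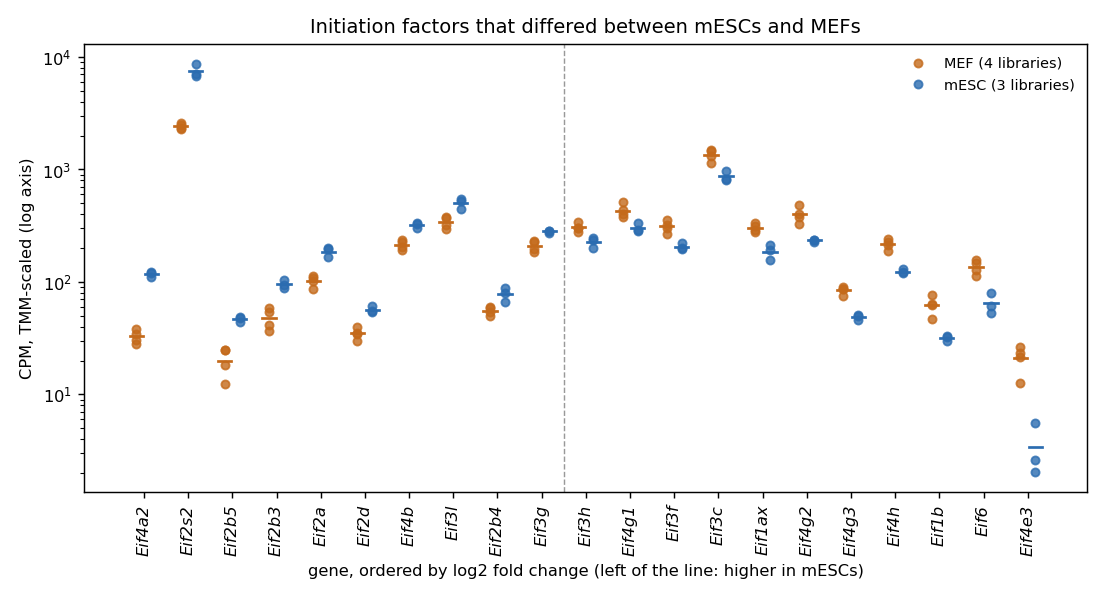
TMM-scaled CPM (log axis) of the 21 called initiation factors in each of 4 MEF libraries and 3 mESC libraries, with a bar at each mean, ordered by log2 fold change. For each gene the points of the cell types do not overlap.

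Eif2s1 had 516, 654, 362 and 363 CPM in MEFs and 634, 581 and 568 CPM in mESCs. The groups overlapped because 1 MEF library was above all mESC libraries. The log2 fold change of Eif2s1 was 0.33, with 2 standard errors each way giving -0.08 to 0.73 (adjusted p = 0.211, edgeR). It was called higher with library size alone (0.62) and without the MEF library of 7312679 counts. Both subunit genes of eIF2 kept in the comparison thus had higher means in mESCs, and the beta subunit was called. The other carriers are monomeric proteins that bring tRNA to the ribosome without eIF2. Eif2a had 114, 85.9, 101 and 108 CPM in MEFs and 165, 195 and 199 CPM in mESCs, or 0.87 ± 0.150 on the log2 scale (SE; adjusted p = 7.57e-04, edgeR). Eif2d, which also acts in reinitiation, had 34.7, 35.2, 30 and 39.5 CPM in MEFs and 53.7, 60.8 and 55.5 CPM in mESCs (log2 fold change 0.70 ± 0.162). Neither gene overlapped between the cell types.

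Of the 5 subunit genes of eIF2B, 3 were higher in mESCs and 2 were not called. Eif2b5 encodes the catalytic epsilon subunit. It had 18.1, 24.7, 12.3 and 24.8 CPM in MEFs and 47.7, 48.3 and 43.9 CPM in mESCs, 2.34-fold higher (log2 fold change 1.23 ± 0.245, adjusted p = 0.00184, edgeR). The gamma subunit gene Eif2b3, which forms the catalytic part with epsilon, had 54.2, 58.2, 36.4 and 41.4 CPM in MEFs and 94.3, 103 and 87.7 CPM in mESCs, a log2 fold change of 1.0 ± 0.190. Both catalytic genes were thus 2.0- to 2.34-fold higher and did not overlap.

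The regulatory subunits alpha, beta and delta sense phosphorylated eIF2, and their genes differed less. Eif2b4 (delta) had 59.7, 50.1, 53.6 and 58.6 CPM in MEFs and 88.4, 66.0 and 79.9 CPM in mESCs. Its log2 fold change was 0.49 ± 0.160 (adjusted p = 0.0259, edgeR), and the call was kept in 3 of 7 fits that left out 1 library each, being lost without the MEF libraries of 7312679 or 9176467 counts and the mESC libraries of 8193825 or 7462710 counts. Eif2b1 (alpha) lay at 44.3 to 50.1 CPM in MEFs and 50.4 to 59.9 CPM in mESCs, and Eif2b2 (beta) at 47.4 to 64.2 and 39.6 to 45.4 CPM. Neither overlapped, in opposite directions, and neither passed the test (log2 fold changes 0.20 and -0.41, adjusted p = 0.326 and 0.0622, edgeR). Without the MEF library of 9176467 counts, and with a stricter filter of at least 10 counts in every library of 1 cell type, Eif2b2 was called lower.

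The start codon factors included 2 genes that were lower in mESCs, each beside a related gene that was not called. Eif1b, the close relative of Eif1, had 62.3, 46.9, 76.7 and 63.4 CPM in MEFs and 32.2, 33.1 and 29.6 CPM in mESCs. This was 1.97-fold lower, with log2 fold change -0.98 ± 0.192 (adjusted p = 0.00165, edgeR), while Eif1, the factor that guards start codon choice, had 261 ± 8.53 CPM in MEFs and 258 ± 19.5 CPM in mESCs. Eif1ax, the eIF1A gene on chromosome X, had 288, 335, 276 and 315 CPM in MEFs and 211, 157 and 190.4 CPM in mESCs (log2 fold change -0.70 ± 0.148). Its autosomal relative Eif1a had 325 ± 50 and 306 ± 21.2 CPM. Eif1ad, an eIF1A domain gene, overlapped between the groups at 42.3 to 73.5 and 72.5 to 90.2 CPM, and its exons overlap those of Banf1 on the opposite strand by 15.3%. For Eif1b, 12.7% of the exon bases are overlapped on the opposite strand by D830035M03Rik.

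eIF3 is the large scaffold on the small subunit. Of its 14 genes, 2 were higher, 3 were lower and 9 were not called, with a median log2 fold change of 0.08. Eif3c, a core subunit that contacts eIF1 and eIF5, had 1326, 1137, 1462 and 1478 CPM in MEFs and 812, 823 and 966 CPM in mESCs. It was 1.56-fold lower (log2 fold change -0.64 ± 0.129, adjusted p = 0.0020, edgeR). The other core scaffold gene Eif3a had 1298, 1064, 1269 and 1173 CPM in MEFs and 1266, 1198 and 1319 CPM in mESCs, overlapping throughout. Its log2 fold change was 0.07 under TMM, with 2 standard errors each way giving -0.15 to 0.29. With library size alone it was 0.36, and Eif3a was called higher.

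Both eIF3 genes that were higher did not overlap between the cell types. Eif3l, a subunit with a PCI domain, had 369, 378, 296 and 319 CPM in MEFs and 543, 447 and 521 CPM in mESCs (log2 fold change 0.56 ± 0.136). Eif3g, an RNA-binding subunit that aids scanning, had 232, 226, 185 and 195 CPM and 283, 275 and 285 CPM (log2 fold change 0.42 ± 0.132, adjusted p = 0.0216, edgeR). The call of Eif3g was lost without the MEF library of 9176467 counts or the mESC libraries of 8193825 or 7462710 counts.

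Eif3f and Eif3h form a pair of MPN-domain subunits, and both were lower. Eif3f had 267, 303, 353 and 323 CPM in MEFs and 220.1, 196 and 201 CPM in mESCs (log2 fold change -0.60 ± 0.139). Eif3h had 301, 279, 301 and 343 CPM in MEFs and 234, 200.3 and 244 CPM in mESCs (log2 fold change -0.44 ± 0.135, adjusted p = 0.0206, edgeR), and its call was lost without the mESC library of 8057985 counts. Neither overlapped between the cell types. Of the 50-base sequences of Eif3h, 20.3% occur in other genes. The 9 genes that were not called had log2 fold changes between -0.19 for Eif3e and 0.35 for Eif3d. Eif3d, a cap-binding subunit, was at 229 to 322 CPM in MEFs and 307 to 361 CPM in mESCs, and 43.3% of its exon bases are overlapped on the opposite strand by Gm17638. It was called higher with library size alone (0.64) and without the MEF library of 7312679 counts, in which its level stood apart from the other MEF libraries. The scaling of libraries does not enter the share of each gene within the eIF3 counts. Eif3c took 27.0 ± 2.34% of them in MEFs and 18.5 ± 1.31% in mESCs. Eif3l took 6.84 ± 0.999% and 10.8 ± 0.733%, and Eif3f 6.23 ± 0.69% and 4.4 ± 0.266%.

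**Figure D3:**
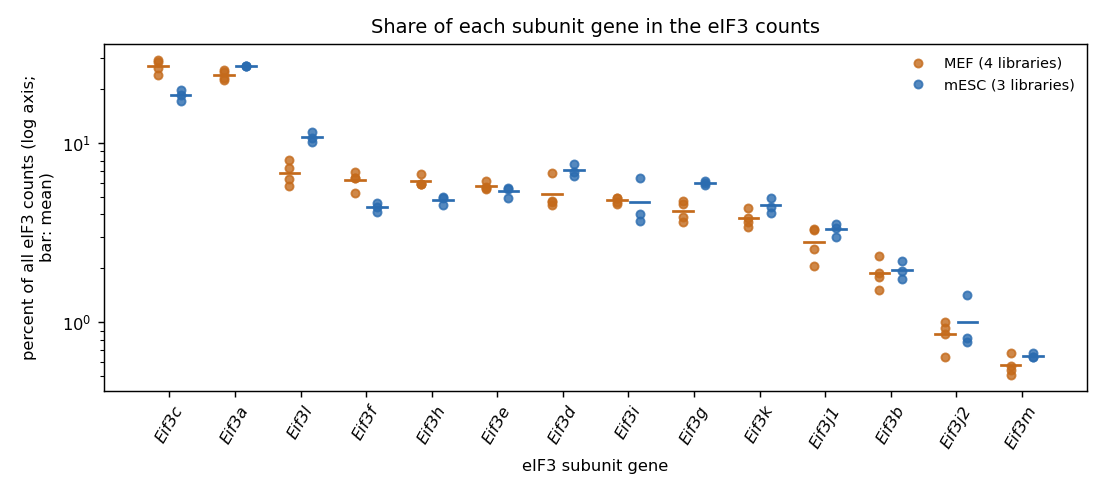
Percent of all eIF3 counts (log axis) taken by each of 14 subunit genes in each of 4 MEF and 3 mESC libraries, with a bar at each mean. Eif3c ran from 24.1 to 29.2% in MEFs and from 17.2 to 19.8% in mESCs, and Eif3a from 22.5 to 25.6% and from 26.8 to 27.1%.

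The cap-binding complex and its helicases held the largest differences in both directions. Of the helicase genes, Eif4a2 had 28.3, 30.6, 34.4 and 38.5 CPM in MEFs and 111, 123 and 119 CPM in mESCs. It was 3.56-fold higher, its log2 fold change being 1.83 ± 0.159 (adjusted p = 5.63e-06, edgeR), with no overlap between the groups. Small nucleolar RNA genes lie within Eif4a2, and 13.6% of its 50-base sequences occur in other genes.

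Eif4a1, usually the more abundant paralog, varied strongly within both cell types, with 1037, 933, 779.9 and 429 CPM in MEFs and 822, 1206 and 469 CPM in mESCs. The groups overlapped over nearly their whole range. The log2 fold change of Eif4a1, with 2 standard errors each way, ran widely from -0.59 to 0.72. Of its 50-base sequences, 28.4% occur in other genes, 36.0% of those in its 3′ tails and 65.3% of those in its protein-coding transcripts, and the authors counted reads that mapped uniquely. Eif4a3, the helicase of the exon junction complex, had 366 ± 51.4 and 335 ± 36.3 CPM and was not called. The cofactor genes went in opposite directions. Eif4b had 193, 206, 226 and 235 CPM in MEFs and 337, 304 and 328 CPM in mESCs (log2 fold change 0.59 ± 0.128, adjusted p = 0.00314, edgeR). Eif4h had 228, 241, 212 and 187 CPM in MEFs and 119, 122 and 129 CPM in mESCs (log2 fold change -0.81 ± 0.141, adjusted p = 7.44e-04, edgeR). Both sets of libraries were separate.

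Of the cap binders, Eif4e3 was lower in mESCs. It encodes an atypical member of the eIF4E family, and was counted 132, 140, 221 and 146 times in MEFs and 51, 18 and 22 in mESCs. In CPM this was 21 ± 5.93 (SD, n = 4) and 3.41 ± 1.88 (SD, n = 3), 6.17-fold lower (log2 fold change -2.61 ± 0.410, adjusted p = 3.9e-04, edgeR). Its counts in mESCs were above the floor of 3 but few, and 14.8% of its exon bases are shared with Gm20696 on the same strand. The main cap binder Eif4e had 171, 145, 122 and 112 CPM in MEFs and 149, 119 and 119 CPM in mESCs. Eif4e2, which binds caps in a repressor complex with GIGYF proteins, had 212, 187, 208 and 145 CPM and 144, 166 and 170.3 CPM. Neither was called, with log2 fold changes of -0.09 (2 standard errors each way, -0.45 to 0.27) and -0.23 (-0.56 to 0.10).

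All 3 eIF4G genes were lower in mESCs, and their libraries did not overlap. Eif4g1 encodes the main scaffold of the cap-binding complex, and had 512, 433, 398 and 375 CPM in MEFs and 284, 289 and 335 CPM in mESCs. Its log2 fold change was -0.51 ± 0.144 (adjusted p = 0.0141, edgeR), and the call was lost without the mESC library of 8193825 counts. Eif4g2 encodes DAP5, which lacks the eIF4E binding site, and had 381, 483, 402 and 325 CPM and 238, 228 and 236 CPM. Eif4g3 had 86.0, 75.0, 89.7 and 87.1 CPM and 51.3, 45.9 and 49.9 CPM. Their log2 fold changes were -0.76 ± 0.151 and -0.78 ± 0.148, 1.70- and 1.72-fold lower. With library size alone the values for the 3 genes were -0.22, -0.47 and -0.50, and Eif4g1 was not called.

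The genes of the binding proteins that hold eIF4E away from eIF4G were not called with the main filter. Eif4ebp1 had 578, 578, 578 and 661 CPM in MEFs and 538, 413 and 468 CPM in mESCs, with no overlap and an adjusted p of 0.0508 (edgeR; log2 fold change -0.34 ± 0.129). It was called lower without the mESC library of 8193825 counts and with the stricter filter of 10 counts. Eif4ebp2 had 38.2, 56.5, 51.0 and 45.9 CPM and 66.0, 67.9 and 57.6 CPM, with no overlap and an adjusted p of 0.0724 (edgeR; log2 fold change 0.42 ± 0.174), and was called higher without the MEF library of 7312679 counts. The eIF4E transporter gene Eif4enif1 had 30.2 ± 4.52 and 30.7 ± 1.86 CPM.

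Among the genes of subunit joining, Eif6 alone was called. Its product binds the large subunit and keeps it from the small one. Eif6 had 147, 158, 113 and 127 CPM in MEFs and 79.2, 52.6 and 61.6 CPM in mESCs, 2.11-fold lower (log2 fold change -1.08 ± 0.191, adjusted p = 8.67e-04, edgeR). Eif5, the GTPase activator of eIF2, had 807, 762, 587 and 664 CPM and 526, 499.9 and 653 CPM, which overlapped (adjusted p = 0.0915, edgeR). It was called lower without the MEF library of 9176467 counts and without the mESC library of 7462710 counts. Eif5b, the GTPase of subunit joining, had 978 ± 26.5 and 923 ± 145 CPM. Eif5a, whose product eases peptide bond formation despite its name, had 963 ± 179 and 791 ± 93.8 CPM, and its paralog Eif5a2 stayed at 3.37 to 10.1 CPM in all libraries. None of these 3 was called.

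The balance between related genes was computed as the counts of the first gene per count of the second within each library, which no scaling of libraries changes. Of 14 pairs, 13 had counts in every library, and Eif4ebp1 with Eif4ebp3 did not. In 7 pairs, 53.8%, the ratios were separate between MEFs and mESCs, against a background of 51.6% of all pairs among 15261 genes, so the number of separate pairs was near that of any 2 genes. The ratios of 5 pairs reached 0.0286, the smallest p that an exact two-sided permutation test over the 35 splits can give, and these p-values are not adjusted for the 13 ratios.

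Eif4e per Eif4e3 ran at 13.5, 6.74, 4.57 and 4.79 in MEFs and 26.8, 57.9 and 45.5 in mESCs, a log2 difference of 2.63 (exact permutation p = 0.0286). Eif4b per Eif4h ran at 0.847, 0.855, 1.06 and 1.26 in MEFs and 2.84, 2.48 and 2.55 in mESCs, a log2 difference of 1.40 with the same p. The cofactor balance thus moved from near 1 to above 2.48, with little spread within mESCs. Eif1 per Eif1b ran at 4.09, 5.47, 3.57 and 4.09 in MEFs and 8.27, 7.11 and 9.15 in mESCs. For Eif4ebp1 per Eif4ebp2 the ratios were 15.1, 10.2, 11.3 and 14.4 in MEFs and lower, at 8.15, 6.09 and 8.13, in mESCs. The fifth pair was Eif4e2 with Eif4e3, with a log2 difference of 2.49.

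Eif4a1 per Eif4a2 ran at 36.6, 30.5, 22.7 and 11.1 in MEFs and 7.43, 9.82 and 3.95 in mESCs. Every mESC library was below every MEF library, and the exact permutation p was 0.0571, which is not under 0.05. Eif4a2 made up 4.57 ± 2.52% of the counts of the pair in MEFs and 13.8 ± 5.74% in mESCs, so Eif4a1 kept most counts in each library. Eif1a per Eif1ax also did not overlap, at 0.834 to 1.31 in MEFs and 1.56 to 1.83 in mESCs (exact permutation p = 0.0571). The eIF4G pairs overlapped, with log2 differences of 0.25 for Eif4g1 to Eif4g2 and 0.28 for Eif4g1 to Eif4g3 and exact permutation p-values of 0.20 and 0.171. The ratios of Eif4a1 to Eif4a3, Eif4e to Eif4e2, Eif3j1 to Eif3j2 and Eif5a to Eif5a2 overlapped as well. Of Eif3j1 and Eif3j2, 50.9% and 91.8% of the 50-base sequences are shared with other genes, each other included, so their split is uncertain.

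**Figure D4:**
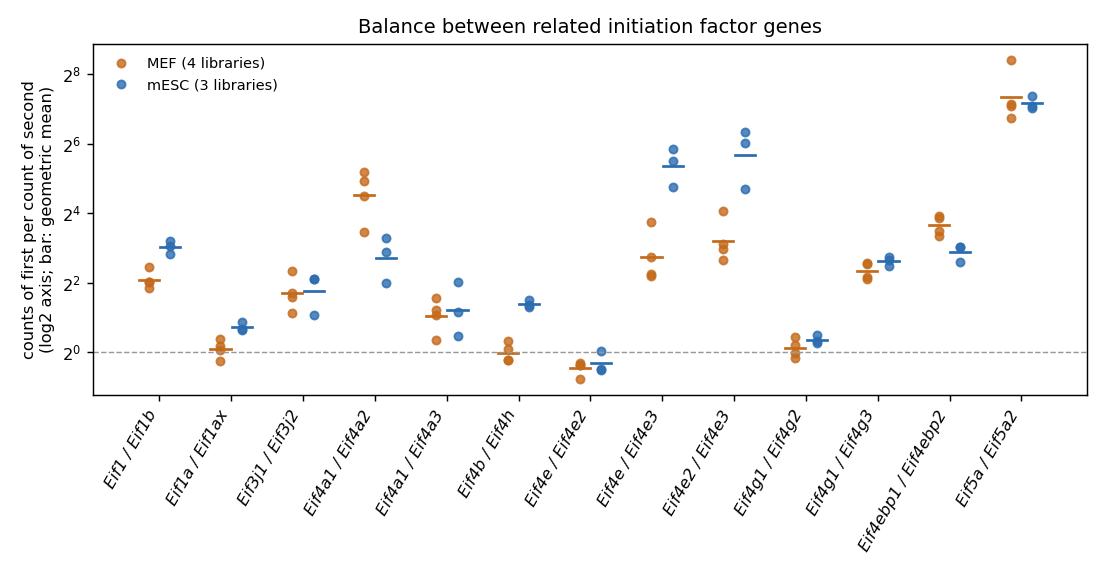
Counts of the first gene per count of the second (log2 axis) for 13 pairs of related initiation factor genes in each of 4 MEF and 3 mESC libraries, with a bar at the geometric mean. The cell types do not overlap in 7 pairs, with Eif4a1 per Eif4a2 between 11.1 and 36.6 in MEFs and between 3.95 and 9.82 in mESCs.

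Summed over all 52 genes, the initiation factors held 1.48%, 1.44%, 1.37% and 1.43% of the counts in the MEF libraries and 2.15%, 2.25% and 2.18% in the mESC libraries. Most of this difference was Eif2s2, which made up 14.5 to 17.2% of the initiation factor counts in MEFs and 35.5 to 41.6% in mESCs. Without it, the shares were 1.21 ± 0.0466% in MEFs and 1.36 ± 0.0386% in mESCs, which did not overlap. On the TMM scale the direction without Eif2s2 turned, with sums of 13202 ± 757 CPM in MEFs and 12216 ± 130.4 CPM in mESCs. By role, the sums of the tRNA carriers and of eIF2B were higher and the sum of eIF4G was lower in mESCs, as shares of the library counts that did not overlap. The eIF4G genes held 0.0833 ± 0.00649% in MEFs and 0.0652 ± 0.0046% in mESCs. The shares of the other roles overlapped.

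**Figure D5:**
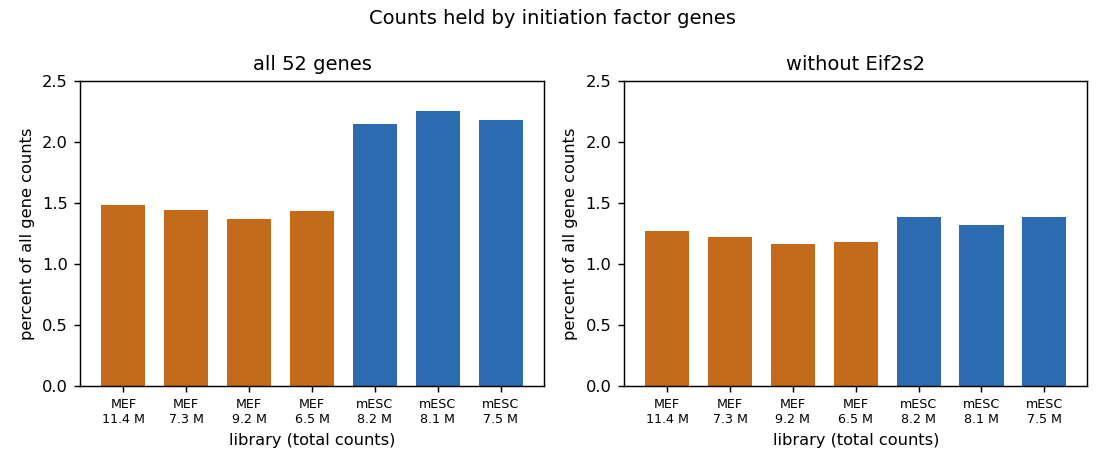
Percent of all gene counts in each of the 7 libraries (bars, from 0) held by the 52 initiation factor genes, and by the same genes without Eif2s2; orange bars are MEFs and blue bars mESCs. All genes together lie between 1.37 and 1.48% in MEFs and between 2.15 and 2.25% in mESCs, and without Eif2s2 the bars of the cell types come close.

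The genes around initiation were read from 6 lists of 88 genes in all, of which 85 were tested, 17 were higher and 19 lower in mESCs, with a median log2 fold change of -0.03. Over all tested genes 22.8% were higher and 25.0% lower, near the shares of these lists. With library size alone 30 were higher and 13 lower. Of the 12 genes of eIF2 kinases and phosphatases, 1 was higher and 3 were lower. Ppp1r15a, a stress-induced subunit of the eIF2 phosphatase, was higher (log2 fold change 0.62), a call kept in 1 of 7 fits that left out 1 library each, the one without the MEF library of 6528643 counts. Dnajc3, an inhibitor of eIF2 kinases in the endoplasmic reticulum (-1.68), the double-stranded RNA kinase gene Eif2ak2 (-0.76) and the adaptor gene Nck1 (-0.64) were lower. The call of Eif2ak2 was kept in 2 such fits, without the MEF library of 7312679 counts and without the mESC library of 7462710 counts, and its libraries overlapped. The call of Nck1 was lost without the mESC library of 8057985 counts, and both were lost with library size alone. The kinase genes Eif2ak1, Eif2ak3 and Eif2ak4 were not called.

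Of 15 targets of the integrated stress response, 7 were lower and Ddit4 alone was higher (0.92), against 25.0% and 22.8% of all tested genes. The call of Ddit4 was lost without the mESC library of 8193825 counts. Atf5 had 186 ± 83.9 CPM in MEFs and 12.7 ± 6.22 CPM in mESCs (log2 fold change -3.87), and Vldlr was at -3.44. The other lower targets were Cebpb (-2.96), Slc7a11 (-2.5), Phgdh (-1.55), Psat1 (-1.2) and Shmt2 (-1.01). The regulator of the response, Atf4, had 125 ± 14 and 154 ± 27.4 CPM and was not called. Asns, Trib3, Chac1, Ddit3, Sesn2 and Atf3 were not called either. Atf4, Asns and Sesn2 were called higher with library size alone. Among 16 genes of mTORC1 and the MNK kinases, which phosphorylate the 4E-BPs and eIF4E, 3 were higher and 4 were lower. The inhibitor Deptor (1.52) and the kinase Mtor (1.17) were higher, and the inhibitor Akt1s1 (-1.76) and the activator Rheb (-0.95) were lower. Inhibitors and activators thus stood on both sides.

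Of 14 partners of the cap and the poly(A) tail, 6 were higher and 3 were lower. Over all tested genes 22.8% were higher and 25.0% lower, which is the background for the lists below as well. The CYFIP genes, of which Cyfip1 encodes a binding protein of eIF4E, differed in opposite directions, with Cyfip2 at 1.67 ± 1.19 CPM in MEFs and 16.9 ± 1.52 CPM in mESCs (log2 fold change 3.27), and Cyfip1 at 144 ± 10.5 and 72.8 ± 9.46 CPM (-0.99). Gigyf1, a partner of eIF4E2, was higher (1.25), and Paip1, which links poly(A)-binding protein to eIF4A, was lower (-1.24). The libraries overlapped for Paip1, with 1 MEF library at 193 CPM and 1 mESC library above it at 233 CPM. Of 15 other initiation and recycling genes, 4 were higher and 1 was lower. Dhps, the first enzyme of the hypusine modification of eIF5A (0.95), and Abcf2 (0.71) were among the higher ones, and Bzw1, an eIF5 mimic, was the lower one (-0.61). The call of Dhps was kept in 3 of 7 fits without 1 library and lost without the MEF libraries of 7312679, 9176467 or 6528643 counts or the mESC library of 8193825 counts. Abcf2 lost its call without the mESC library of 7462710 counts, and Bzw1 with library size alone. Of 14 tested genes on the list for elongation and termination, 3 were higher, namely Eef1e1 (1.36), Gspt2 (1.19) and the release factor gene Etf1 (0.49). Gspt2 kept its call in 3 of 7 fits without 1 library, losing it without the MEF libraries of 11441278 or 6528643 counts or the mESC libraries of 8057985 or 7462710 counts. Etf1 kept it in 2, without the MEF libraries of 11441278 or 7312679 counts. Eef2k, the kinase that inhibits elongation factor 2, was lower, at 35.2 ± 6.15 CPM in MEFs and 7.02 ± 2.07 CPM in mESCs (-2.33). The elongation factor gene Eef1a1 itself had 1640 ± 127 and 1643 ± 115 CPM.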

How the data were processed

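RNA-seq gene counts of 4 MEF and 3 mESC libraries were used. The authors demultiplexed and trimmed the reads and used STAR to map them to mm10. The version of STAR was 2.4.2a in the submitters' processing notes, and the paper's methods name a different one. Reads with 1 molecular identifier were merged in Je, and featureCounts was run on exons, keeping reads that mapped to 1 place. The deposited values are whole-number counts without normalization. The annotation release and strand setting are not given in the sources used here, so 11 factors with exons overlapped on the opposite strand carry that doubt. The extraction text in the labels describes blood stem cells of mice, not these cells. Column names give the cell type but not the sample, so libraries are named by totals, and the number of value columns not used was 0. The number after the cell type is the same in every column, while the sample titles differ in it. The names thus do not show whether the libraries of a cell type came from separate samples. A letter in the names differs only between the cell types and is not explained.

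All genes were fitted with edgeR 4.0.16 (limma 3.58.1, R 4.3.3), using TMM, filterByExpr and the quasi-likelihood test at an adjusted p of 0.05, without covariates. The code was tested on simulated data. Alternatives were DESeq2 1.42.0, other scalings and filters (at least 10 counts in every library of 1 cell type), a test against a fold change of 2, a pseudocount of 0.5 in gene ratios and each library left out. Between libraries of 1 cell type, chi-square over its degrees of freedom was 15.6 to 31.1, so none counted as the same library sequenced again. The check compares counts with random sampling of 1 library, so it cannot tell separate libraries of 1 culture from separate cultures. Coordinates are from GENCODE M21 on GRCm38, which held 50 of the 52 symbols, and windows are from RefSeq. Shared sequences are 50-base sequences found in transcripts of other genes on either strand.

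The members and gene lists were chosen with earlier results of these data known. Genes named with values are the 10 highest and 10 lowest called factors by log2 fold change, the 5 with the most counts, all gene pairs, untested factors, and up to 2 genes at each end of each pathway list. Others, such as Eif3h, Eif2s1, Eif1ad and Atf4, were named after their values were seen.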

Additional observations from a re-analysis of the deposited data

Results flagged for a closer look

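In the 4 MEF libraries, 6 of 60 values (the CPM of each tested factor and each gene ratio) had 1 library far from the other 3, where chance alone gives about 1 in 20. In the MEF library of 7312679 counts, Eif3d had 322 CPM against 229 to 241 in the others, Eif4a3 had 443 CPM against 335 to 350.2, and Eif5a per Eif5a2 was 340.3 against 107 to 142. In the library of 6528643 counts, Eif1ad had 42.3 CPM against 68.5 to 73.5, and Eif4ebp1 had 661 CPM against 578 in each of the others. In the library of 9176467 counts, Eif4e per Eif4e2 was 0.583 against 0.77 to 0.808. The mESC group, with 3 libraries, was too small for this check.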

How the results depend on the processing

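With DESeq2, and with DESeq2's size factors in edgeR, the same 10 factors were higher and the same 11 lower. Without a filter 8 were higher, Eif2b4 and Eif3g being lost, and with the stricter filter 13 were lower, with Eif2b2 and Eif4ebp1 added. With library size alone 17 factors were higher and 7 lower, and 30 pathway genes higher; against a fold change of 2 these were 2 and 1 factors, and 2 pathway genes higher and 7 lower. Leaving out each library gave 8 to 12 factors higher and 10 to 13 lower, 13 to 17 pathway genes higher and 17 to 18 lower, and 7 to 8 separate pairs. The share of counts held by the factors was higher in mESCs by 0.763 percentage points, by 0.152 without Eif2s2, by 0.409 on TMM-scaled sizes and by 0.734 to 0.785 without 1 library. Of 660 alternative fold changes of 55 genes, 599 kept direction and call, 39 lost the call, 5 gained it and 17 changed sign. No sign change concerned a called factor. With library size alone the log2 fold change was 0.27 for Eif1, 0.20 for Eif1a, Eif4e and Eif5b, 0.16 for Eif4a3, 0.06 for Eif4e2, 0.01 for Eif5a and 0.08 for Eif5a2, and Eif1 was at 0.00071 with DESeq2's size factors. Without 1 library, Eif1 reached 0.04, Eif3j2 -0.01 and -0.25, Eif4a1 -0.15 and -0.30, Eif4e 0.02, Eif5a2 0.13 and Eif5b 0.03. The log2 ratio differences reached -0.12, -0.11 and -0.10 for Eif3j1 to Eif3j2, -0.07 and -0.25 for Eif4a1 to Eif4a3, -0.04 for Eif4e to Eif4e2 and 0.17 for Eif5a to Eif5a2. The cause was not tested. No paired analysis was possible because no source ties the last number of a column to a labelled replicate, or ties equal numbers across the cell types. Depth limits the 5 untested factors and Eif4e3 and Eif5a2.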
